A study of Mus musculus with 6 samples.

Results

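The genes described here defend cells against peroxides and other electrophiles through glutathione and thioredoxin, and were taken from a fixed list of 9 symbols: Gclc, Gclm, Gsr, Gpx3, Txnrd1, Srxn1, Prdx1, Hmox1 and Nqo1. A probe set for the glutathione transferases Gsta1 and Gsta2 was added, which made 10 members measured in mouse heart grafts. All 9 listed genes had a probe set. Together with the Gsta probe set the members had 21 of the 22626 probe sets other than controls. The platform annotation lists the Gsta probe set for Gm3776 as well, and all 5 probe sets of Prdx1 for Gm21399 as well, so those signals cannot be assigned to 1 gene. They are called the shared Gsta probe set and the shared Prdx1 probe sets. The 8 other members had probe sets of their own. The 12393 genes used for shares and ranks include these 8 and leave out the shared probe sets. All 10 lay above the floor for low signals on all 6 arrays with their brightest probe set.

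Each array measured a group of its own. A syngraft comes from a genetically matched donor and an allograft from a mismatched one, and 1 graft of each kind was untreated. The other 4 were allografts of treated recipients. Nitric oxide synthases need BH4 (tetrahydrobiopterin) as a cofactor, and its 4-amino analog is ABH4. Recipients of either received doses of 50 mg/kg at intervals of 8 h. NIL, N-imino ethyl-L-lysine, inhibits inducible nitric oxide synthase, and its dose was 5 mg/kg at the same interval. CsA, cyclosporin A, blocks calcineurin and was dosed at 15 mg/kg once in 24 h. Strains, genotypes, ages, the day of removal and any pooling of grafts are not stated in the labels, so a strain difference, a difference between single grafts and alloimmunity cannot be told apart in the comparison with the syngraft.

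Glutathione is made by glutamate-cysteine ligase, whose catalytic subunit is Gclc and whose modifier subunit is Gclm, and Gsr returns oxidised glutathione to its reduced form at the expense of NADPH. Glutathione peroxidases and transferases spend it on peroxides and electrophiles. In the parallel thioredoxin system Txnrd1 reduces thioredoxin, thioredoxin reduces the peroxiredoxins such as Prdx1, and Srxn1 rescues peroxiredoxins that have been overoxidised. Many of these genes, with the haem-degrading Hmox1 and the quinone reductase Nqo1, are textbook targets of the transcription factor NRF2 (Nfe2l2), which Keap1 holds down and Bach1 opposes at the antioxidant response element.

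The sequences show where the core of that element lies at members that were high on the allograft arrays, and at Prdx1. By its brightest probe set, Prdx1 differed little. The core was searched as TGACNNNGC, or GCNNNGTCA on the opposite strand, in RefSeq windows (GRCm38.p6) from 250 bases before to 50 after each gene start. Of the 9 listed genes 6 had a window, and Gclm, Txnrd1, Srxn1 and Prdx1 held 1 match each. All 4 matches read in the reverse orientation. Of 32817 windows of all genes 12.4% held the core, as did 14.0% of 26994 genes with at least 1 window. For Txnrd1 it lay in 1 of 3 windows. No match lay in the windows of Gpx3, Nqo1, Gsta1, Gsta2 and Gm3776, which says only that these letters are not there. No window was used for Gclc, Gsr and Hmox1. The stretches are the 250 bases before the start at Gclm (chr3:122245307-122245556), Txnrd1 (chr10:82858956-82859205) and Prdx1 (chr4:116685349-116685598), and 29 bases around the match at Srxn1 (chr2:152105542-152105570), all on the plus strand, with the match in capitals. The match starts 134 bases before the gene start at Gclm, 92 before it at Txnrd1, 133 before it at Prdx1 and at base 29 of the gene at Srxn1.
Gclm: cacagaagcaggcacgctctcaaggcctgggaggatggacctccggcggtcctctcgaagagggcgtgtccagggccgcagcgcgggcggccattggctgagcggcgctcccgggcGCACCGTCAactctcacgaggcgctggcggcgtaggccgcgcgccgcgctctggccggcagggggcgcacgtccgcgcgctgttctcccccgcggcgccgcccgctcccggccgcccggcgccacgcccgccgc
Txnrd1: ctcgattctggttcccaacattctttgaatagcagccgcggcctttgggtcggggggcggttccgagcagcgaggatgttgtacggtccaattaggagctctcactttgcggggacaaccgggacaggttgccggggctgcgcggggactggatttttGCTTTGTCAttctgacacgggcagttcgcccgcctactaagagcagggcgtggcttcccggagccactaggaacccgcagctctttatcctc
Prdx1: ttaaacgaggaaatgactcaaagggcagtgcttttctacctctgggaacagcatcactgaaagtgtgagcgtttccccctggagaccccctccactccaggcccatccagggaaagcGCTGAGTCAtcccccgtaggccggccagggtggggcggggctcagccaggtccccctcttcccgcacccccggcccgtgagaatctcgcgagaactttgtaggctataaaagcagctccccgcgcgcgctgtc
Srxn1: gcagtgggcaGCTAGGTCAgagtgagaca

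Signals are the deposited linear intensities, rescaled here to a common median. The floor was 34.8, and a gene took its brightest probe set. With 1 array per group there is no replicate error, no test and no p-value. Members are counted as higher or lower at 1.5-fold or more, beside the share of all 12393 genes past the same fold. Before rescaling, the arrays' medians ran from 77.7 to 88.5, and the number of arrays limits the precision. Probes at the 3' and 5' ends of control transcripts gave ratios of 1.04 to 1.13 (Actb) and 0.788 to 0.876 (Gapdh) over the 6 arrays. All 10 cardiomyocyte markers looked up lay above the floor on every array. The BH4 array stood apart in carrying salivary transcripts: the 8 salivary markers summed to 11106 there and to between 320 and 804 on the others. Results for BH4 rest on that array alone.

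Against the syngraft, the untreated allograft had higher signals for 6 of the 10 members and a lower signal for Gpx3. The 6 were Gclm, Gsr, the shared Gsta probe set, Txnrd1, Srxn1 and Hmox1, where 15.4% of all genes were higher. Gpx3 was the only member lower, where 11.9% of all genes were lower. The median log2 difference was 0.97 over the members and 0.00 over all genes, which include genes at the floor on both arrays. Of 10022 genes above the floor on at least 1 of the compared arrays, 19.1% were higher and 14.7% lower, with a median of 0.05. Gclc, the shared Prdx1 probe sets and Nqo1 differed by less than 1.5-fold with their brightest probe sets, but another shared Prdx1 probe set was 1.99-fold higher. In the plot of brightest probe sets by array, the same 5 members stand at least 1.5-fold above the syngraft on all 5 allograft arrays. They are Gclm, the shared Gsta probe set, Txnrd1, Srxn1 and Hmox1. Of all genes 3.63% stood above the syngraft on all 5, and 2.17% stood below it on all 5, among them Gpx3. These 5 differences share the syngraft array, so they are not independent. As the mean of all probe sets, 4 members stood above on all 5, where 2.91% of all genes did. With CsA the other probe sets of Srxn1 disagreed: 1.81-fold and 1.02-fold above the syngraft, and at least 3.48-fold below it.

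**Figure D1:**
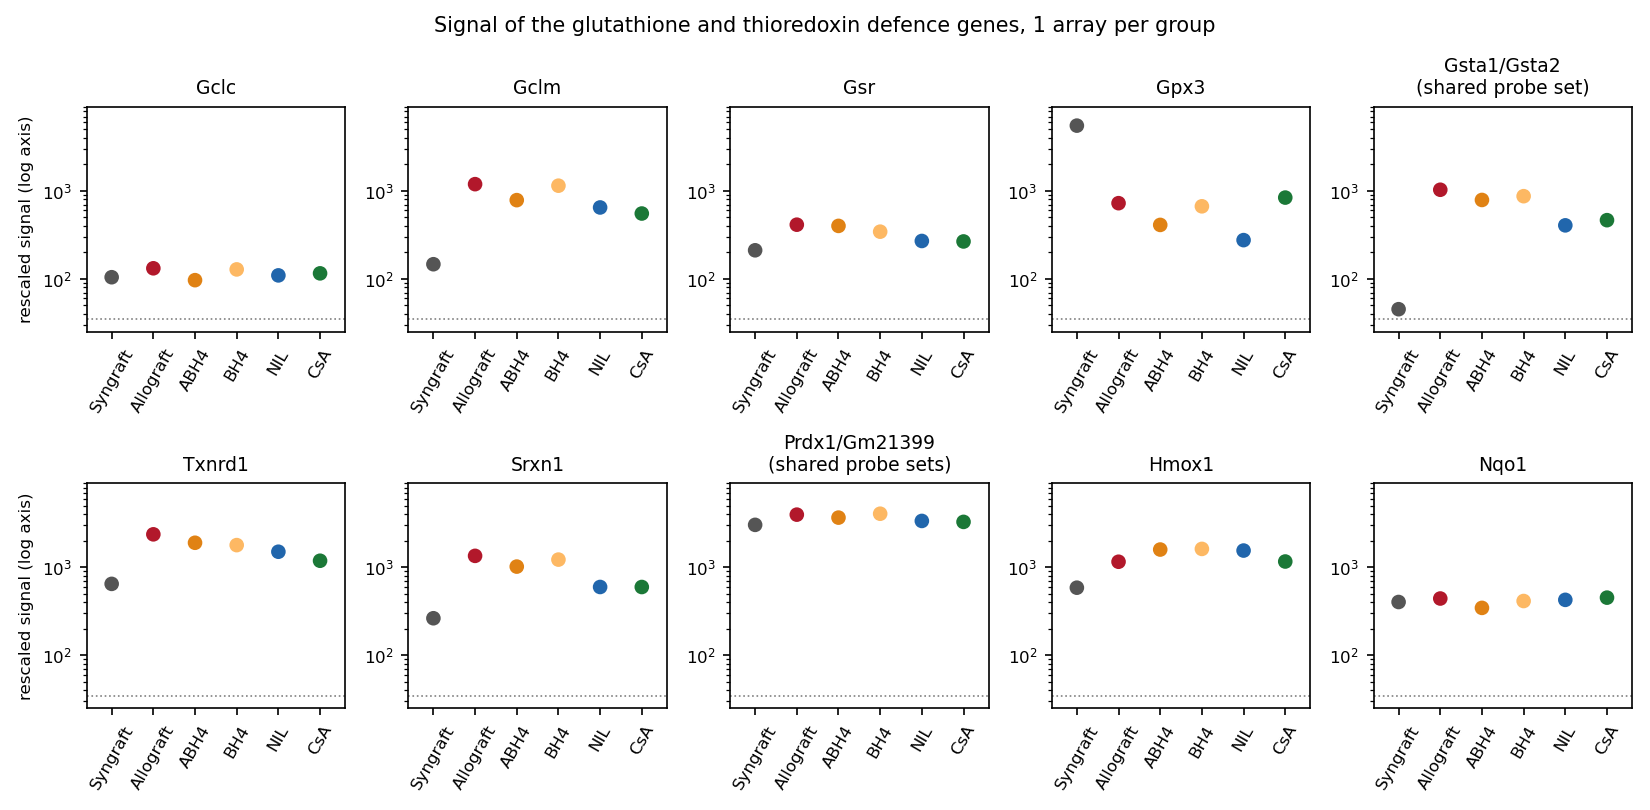
Rescaled signal (log axis) of the 10 members, 1 point for each of the 6 arrays, brightest probe set; the dotted line is the floor of 34.8. Gclm, Srxn1, Txnrd1 and the shared Gsta probe set are lowest on the syngraft array and Gpx3 is highest there. Gclc, Nqo1 and the brightest shared Prdx1 probe set keep within 1.5-fold across all 6 arrays.

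The subunits of glutamate-cysteine ligase differed in their pattern. Gclm, the modifier, had a signal of 147 in the syngraft, 1194 in the untreated allograft, 786 with ABH4, 1148 with BH4, 649 with NIL and 554 with CsA. The syngraft was lowest and the untreated and BH4 arrays were highest. The allograft difference was 8.13-fold (3.02 on the log2 scale), rank 42 from the top of the 8631 genes that exceeded the floor in both grafts. Gclc, the catalytic subunit, had signals of 105, 132, 96.8, 128, 110 and 116 in the same order. Its highest and lowest arrays were 1.36-fold apart, and its second probe set ranged from 93.6 to 109. Gclm was 2.16-fold lower with CsA than without treatment, 1.84-fold lower with NIL and 1.52-fold lower with ABH4, and 1.04-fold lower with BH4. The ABH4 value missed 1.5-fold without rescaling (-0.55) and after quantile normalization (-0.55).

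Gsr, glutathione reductase, had signals of 212 in the syngraft, 413 in the untreated allograft, 401 with ABH4, 344 with BH4, 270 with NIL and 267 with CsA. The untreated and ABH4 arrays were highest by the brightest probe set, but BH4 (285) exceeded ABH4 (253) by the second. NIL and CsA lay nearest to the syngraft by both. The allograft was 1.95-fold higher than the syngraft, and 1.81-fold by the second probe set. NIL and CsA were 1.53-fold and 1.55-fold below the untreated allograft, but 1.43-fold and 1.40-fold by the second probe set. Both missed the 1.5-fold mark without rescaling (-0.47 and -0.45), after quantile normalization (-0.43 and -0.41) and as the mean of both probe sets (-0.57 and -0.56).

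Gpx3, the secreted glutathione peroxidase, ran the other way. Its signal was 5527 in the syngraft, 726 in the untreated allograft, 411 with ABH4, 669 with BH4, 276 with NIL and 840.5 with CsA. The syngraft stood far above every allograft, and among the allografts NIL was lowest and CsA highest. The untreated allograft was 7.61-fold lower than the syngraft, rank 31 from the bottom of 8631 genes. Against the syngraft, NIL was 20.0-fold lower, ABH4 13.4-fold, BH4 8.26-fold and CsA 6.58-fold. In those comparisons Gpx3 ranked 1, 3, 4 and 5 from the bottom, of 8885, 8660, 8731 and 8943 genes ranked. Against the untreated allograft, Gpx3 was 2.63-fold lower with NIL and 1.77-fold lower with ABH4, 1.09-fold lower with BH4 and 1.16-fold higher with CsA. Gpx3 has a single probe set on this array, and its high value rests on the syngraft array alone.

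The shared Gsta probe set detects alpha-class transferases, which conjugate glutathione to electrophiles and lipid peroxidation products. Its signal was 45.3 in the syngraft, 1032 in the untreated allograft, 790 with ABH4, 872 with BH4, 406 with NIL and 465 with CsA. The syngraft lay just above the floor, and NIL and CsA lay lowest among the allografts. The allograft difference was 22.8-fold (4.51 on the log2 scale), the largest of the 10 members, and 3.63 when the floor was raised to the 50th percentile, which the syngraft signal did not reach. Below the untreated allograft were NIL (2.54-fold) and CsA (2.22-fold). ABH4 and BH4 differed from it by 1.31-fold and 1.18-fold. A probe set listed for Gsta2 alone, which is no member, had signals between 22.9 and 37.1 and exceeded the floor on 1 array, so the shared signal was not matched by that probe set.

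Txnrd1, cytosolic thioredoxin reductase, had signals of 650 in the syngraft, 2379 in the untreated allograft, 1908 with ABH4, 1794 with BH4, 1508 with NIL and 1192 with CsA. Every allograft array exceeded the syngraft, and CsA came nearest to it. The untreated allograft was 3.66-fold above the syngraft, and 3.40-fold and 2.26-fold by the other probe sets. CsA was 1.997-fold below the untreated allograft, and 1.90-fold and 1.77-fold below it by the other probe sets. NIL was 1.58-fold below it, or 1.71-fold and 1.88-fold by the other probe sets. The brightest probe set missed 1.5-fold there without rescaling (-0.51) and after quantile normalization (-0.48).

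Srxn1, sulfiredoxin, had signals of 264 (brightest probe set) in the syngraft, 1354 in the untreated allograft, 1022 with ABH4, 1228 with BH4, 599.7 with NIL and 599.2 with CsA. NIL and CsA lay together between the syngraft and the other allografts. The allograft was 5.12-fold above the syngraft, and NIL and CsA were each 2.26-fold below the untreated allograft. The other 3 probe sets of Srxn1 gave 3.96-fold, 4.01-fold and 1.28-fold for allograft against syngraft. Under CsA they were 2.18-fold, 3.92-fold and at least 4.45-fold lower. Under NIL they disagreed in sign: 1.49-fold and 2.25-fold lower, but 1.34-fold higher by the probe set 1419942_at. That probe set also differed most from the others under CsA, where it was below the floor. Averaged over its probe sets, Srxn1 was 1.67 higher on the log2 scale in the allograft than in the syngraft, with -1.61 for CsA and -0.62 for NIL against the untreated allograft. For BH4 the average was 0.24 where the brightest probe set gave -0.14. With BH4 the other 3 probe sets were each higher than in the untreated allograft, and with ABH4 they disagreed in sign.

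The shared Prdx1 probe sets, for a peroxiredoxin that turns hydrogen peroxide over with thioredoxin, had signals of 3048 in the syngraft, 3983 in the untreated allograft, 3685 with ABH4, 4080.0 with BH4, 3378 with NIL and 3295 with CsA by the brightest of 5. The highest and lowest arrays were 1.34-fold apart. The allograft was 1.31-fold above the syngraft, and between 1.07-fold and 1.99-fold by the other 4. The probe set 1434731_x_at stood apart, with 4204 in the untreated allograft and 1470 with CsA, 2.86-fold lower, where the others differed by at most 1.21-fold. Another, 1437014_x_at, was 1.72-fold lower with NIL.

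**Figure D2:**
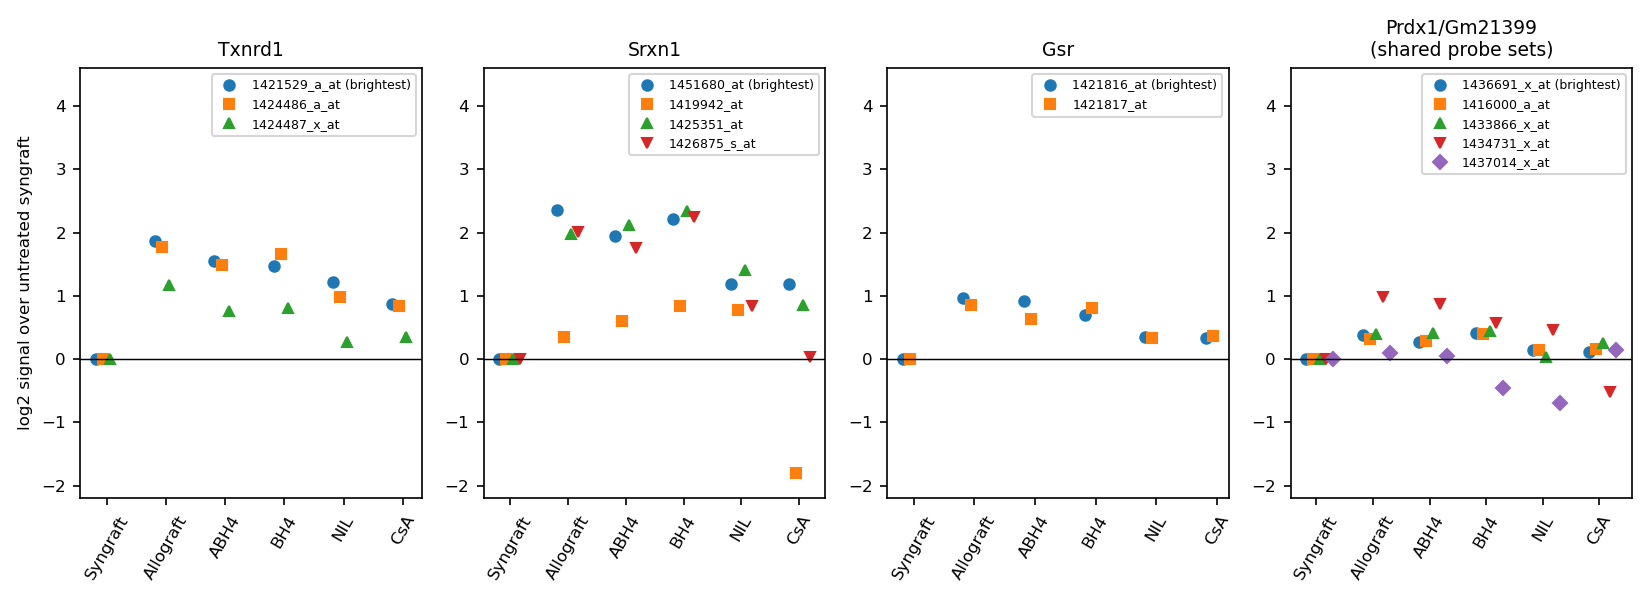
Log2 signal over the untreated syngraft for every probe set of Txnrd1, Srxn1, Gsr and the shared Prdx1 probe sets on the 6 arrays; points of 1 array are shifted sideways, and 1419942_at is at the floor with CsA. The probe sets of Txnrd1 and Gsr keep to 1 direction. With CsA 1419942_at of Srxn1 and 1434731_x_at of the shared Prdx1 probe sets lie below the syngraft, and 1426875_s_at of Srxn1 lies near it (0.03). Another shared Prdx1 probe set, 1437014_x_at, lies below the syngraft with BH4 (-0.46) and NIL (-0.69).

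Hmox1, haem oxygenase 1, degrades haem to biliverdin, carbon monoxide and iron. Its signal was 589 in the syngraft, 1161 in the untreated allograft, 1598 with ABH4, 1624 with BH4, 1556 with NIL and 1168 with CsA. Unlike Gclm and the brightest probe set of Srxn1, it was higher on the ABH4, BH4 and NIL arrays than in the untreated allograft. The differences of 1.38-fold, 1.40-fold and 1.34-fold were below the 1.5-fold mark. CsA differed from the untreated allograft by 1.01-fold, and the untreated allograft was 1.97-fold above the syngraft. Quantile normalization took the NIL difference past the mark (0.64 against 0.42 on the log2 scale). Nqo1, a quinone reductase, had signals of 405, 443, 347, 415, 428 and 454 for syngraft, untreated allograft, ABH4, BH4, NIL and CsA. Its arrays spanned 1.31-fold, with ABH4 lowest.

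Set against the untreated allograft, the treated arrays differed in how many members were lower. With NIL 6 of 10 members were lower, where 5.33% of all genes were lower: Gclm, Gsr, Gpx3, the shared Gsta probe set, Txnrd1 and Srxn1. No member was higher, where 6.37% of all genes were, and the members' median was -0.64 against 0.00 over all genes. Without rescaling or after quantile normalization 4 of the 6 were lower, where 2.82% and 3.95% of all genes were lower. With CsA 5 of 10 were lower, where 12.2% of all genes were lower, and none was higher, where 9.31% of all genes were. They were Gclm, Gsr, the shared Gsta probe set, Txnrd1 and Srxn1, and the members' median was -0.45. Without rescaling, after quantile normalization and as the mean of probe sets, 4 were lower with CsA. Of all genes 7.4%, 8.75% and 10.2% were lower there. Among genes above the floor on at least 1 of the compared arrays, 6.71% were lower with NIL (median -0.08) and 15.3% with CsA (median -0.09). The NIL and CsA comparisons share the untreated allograft array, so their values are not independent of each other.

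With ABH4 Gclm and Gpx3 were lower, 2 of 10 members where 2.49% of all genes were lower, and none was higher, where 3.24% of all genes were. The members' median was -0.37. With BH4 all 10 members lay within 1.5-fold of the untreated allograft, where 4.9% of all genes were higher and 3.35% lower, and the members' median was -0.11. ABH4 and BH4 were given at the same dose and interval and could be set against each other directly. Gpx3 was 1.63-fold lower with ABH4, the only member past 1.5-fold, where 4.11% of all genes were lower and 3.26% higher. Gclm was 1.46-fold and Gclc 1.33-fold lower with ABH4. By their brightest probe sets the other members differed by at most 1.20-fold. Further probe sets reached 1.41-fold lower for Srxn1 and 1.42-fold higher for the shared Prdx1 probe sets, and those of Gsr and of Txnrd1 disagreed in sign. With 1 array each, no interval can be given for these differences, and the smaller values do not show that the compounds act alike.

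**Figure D3:**
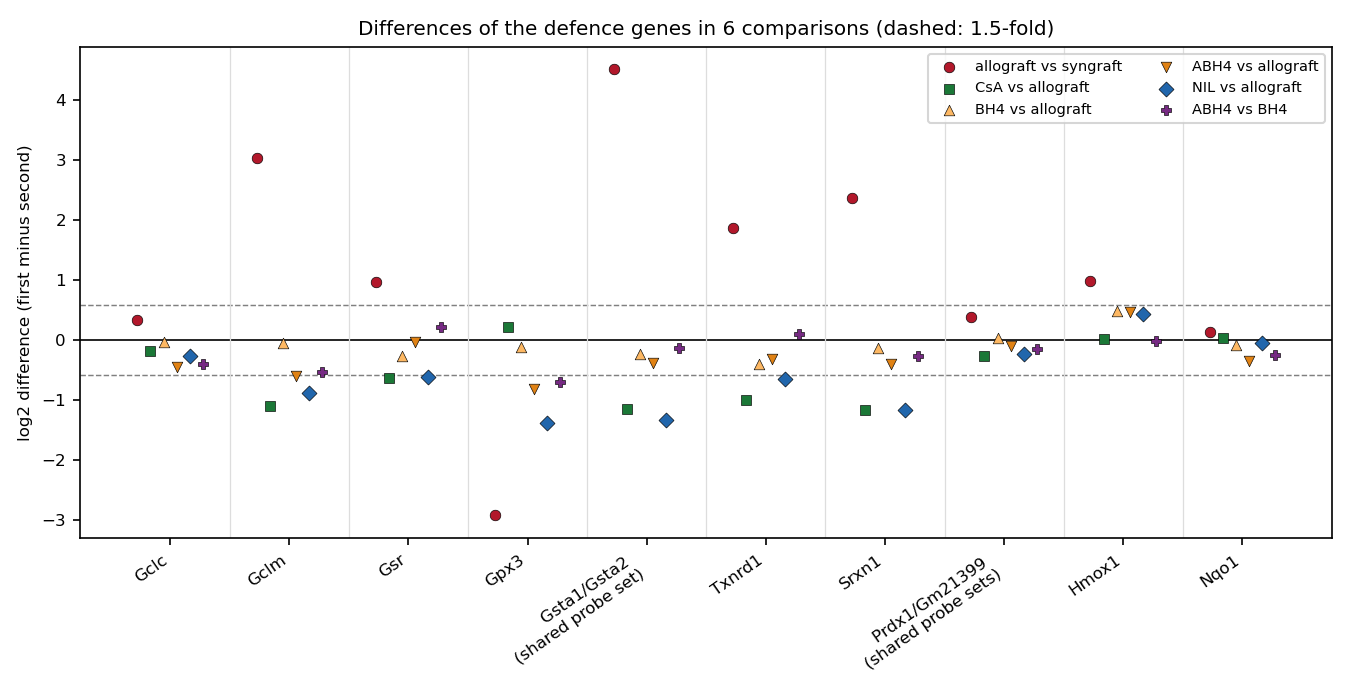
Log2 difference of each member in the 6 comparisons, first group minus second, brightest probe set; dashed lines mark 1.5-fold. The allograft points reach 4.51 for the shared Gsta probe set and -2.93 for Gpx3, CsA and NIL points lie below the lower line for Gclm, the shared Gsta probe set, Gsr, Txnrd1 and Srxn1, and no BH4 point passes either line.

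The regulators of the pathway were measured on the same arrays. Nfe2l2, which encodes NRF2, had signals of 432 in the syngraft, 1043 in the untreated allograft, 898 with ABH4, 939 with BH4, 804 with NIL and 694 with CsA. It was lowest in the syngraft and, among the allografts, with CsA, and it was 2.42-fold higher in the untreated allograft than in the syngraft. Keap1 was 1.47-fold and Bach1 1.47-fold higher in the allograft by their brightest probe sets, but their second probe sets differed by 0.08 and 0.07 on the log2 scale. Of 13 regulators and stress factors measured, 6 were higher and 0 lower in the allograft (median 0.55). Of all genes 15.4% were higher and 11.9% lower. Atf3 led the 6 (2.90-fold), and Bach2 was furthest below (1.38-fold). With CsA 5 of 13 were lower, where 12.2% of all genes were, with Maff 2.30-fold lower. Nfe2l2, 1 of the 5, was just past the mark (-0.59) and missed it without rescaling (-0.40), and Maff missed it once the floor was the 50th percentile (-0.55). With NIL 3 of 13 were lower, where 5.33% of all genes were, with Atf3 1.77-fold lower. With BH4 2 of 13 were lower, where 3.35% of all genes were, and Nupr1 was 2.05-fold higher. With ABH4 0 were lower, where 2.49% of all genes were, and Nupr1 was 1.65-fold higher.

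Of 12 other genes of glutathione synthesis and supply, 7 were higher and 2 lower in the allograft, beside 15.4% and 11.9% of all genes. The median was 0.65, and the 7 included the amino acid carrier chain Slc3a2, at 614 in the syngraft and 1582 in the allograft. Ggct, which breaks down gamma-glutamyl peptides, was 6.35-fold higher, although its second probe set differed in sign (-0.43), and Ggt5 was 1.94-fold lower, a call lost as the mean of both its probe sets (-0.48) and under the 50th percentile floor (-0.17). Slc7a11, the cystine carrier, was weak throughout: 59.6 in the allograft, 47.5 with ABH4, 38.1 with BH4, 95.0 with NIL, and below the floor in the syngraft and with CsA. Ggct was 2.90-fold lower with CsA, again with a second probe set of opposite sign (0.35). Chac1, which degrades glutathione, was 2.55-fold lower with CsA, 2.20-fold lower with NIL, 1.83-fold lower with BH4 and 1.47-fold lower with ABH4. Ggt5 was 1.60-fold higher with ABH4, but its second probe set gave 0.08 and the mean of both 0.38.

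Glutathione peroxidases, transferases and glutaredoxins other than the members were higher in the allograft in 4 of 26 and lower in 4 (median -0.06). These counts were near the shares of all genes, 15.4% higher and 11.9% lower. Mgst1, a microsomal transferase, was 6.29-fold higher, with a second probe set at the floor on both arrays, and Gsta4, another alpha-class transferase, had signals of 260 in the syngraft and 1152 in the allograft. Gpx7 was 2.13-fold lower. Glrx, glutaredoxin, was 2.52-fold lower with CsA and Gsta4 1.86-fold lower with NIL. Gstm1 was 1.35-fold higher with BH4 and Gstt2 1.59-fold higher with ABH4, below the mark under the 50th percentile floor (0.50). In the thioredoxin system 5 of 15 further genes were higher in the allograft and 3 lower, beside 15.4% and 11.9% of all genes. Their median was below 0 (-0.34). Sesn2, a sestrin, was at least 4.43-fold higher and Msrb2, a methionine sulfoxide reductase, 2.14-fold lower. Sesn2 was lower in each treated allograft than in the untreated one, by 2.33-fold with CsA, 2.52-fold with NIL and 1.31-fold with ABH4, and with signals of 77 with BH4 and 154 untreated. Txn1, thioredoxin itself, had signals of 1530 in the syngraft and 3066 in the allograft.

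Among 10 genes of NADPH supply 3 were higher and 0 lower in the allograft (median 0.20), with the pentose phosphate enzyme Taldo1 2.39-fold higher and Idh2 1.10-fold lower. Pgd was 1.72-fold lower with CsA, and Idh2 1.57-fold lower with ABH4 and 1.63-fold lower with NIL. After quantile normalization Pgd with CsA (-0.53) and Idh2 with NIL (-0.52) missed the mark. Without rescaling Idh2 with NIL missed it as well (-0.55). The 3 other probe sets of Pgd ranged from -1.30 to -0.05 with CsA. Idh1 was 2.83-fold higher with BH4, with a second probe set of opposite sign (-0.23). Of 16 other NRF2 target genes 4 were higher and 0 lower in the allograft (median 0.01), with the metallothionein Mt2 3.50-fold higher and Cbr1 1.43-fold lower. Mt1 was 1.89-fold lower with CsA, with a second probe set of opposite sign (0.61), Cat, catalase, was 1.70-fold lower with NIL, and Cbr1 was 1.55-fold higher with BH4 and 1.69-fold higher with ABH4. Under the 50th percentile floor Cbr1 gave 0.33 and 0.45, and Cat gave -0.58 after quantile normalization, all short of the mark. Among 13 haem and iron genes 3 were higher and 2 lower (median 0.02). Blvrb, biliverdin reductase B, was 5.27-fold higher, and Hp, haptoglobin, 2.42-fold lower. Hp was 4.02-fold lower with CsA, 1.82-fold lower with NIL and 2.25-fold higher with ABH4, and Cp, ceruloplasmin, was 1.56-fold lower with BH4. The 6 other probe sets of Cp ranged from -0.59 to 0.00 there, and the mean of all its sets (-0.38) missed the mark. Over all genes 15.4% were higher and 11.9% lower in the allograft.

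In whole grafts, fewer cells of a type and less RNA per cell cannot be told apart, and markers of other cell types differed between the same arrays. The 8 T cell markers measured summed to 180 in the syngraft, 1908 in the untreated allograft, 2210 with ABH4, 1506 with BH4, 2116 with NIL and 266 with CsA, with 6 of 8 at the floor in the syngraft and 4 of 8 with CsA. On the NIL and CsA arrays, whose T cell sums were far apart, Gclm had signals of 649 and 554 and the shared Gsta probe set 406 and 465. Srxn1 was alike on them by its brightest probe set alone: the other 3 gave 308 and 210, 248 and 142, and 208 and a value below the floor. The 10 macrophage markers summed to 11947 in the syngraft and 15466 in the untreated allograft, and to between 13038 (CsA) and 19412 (BH4) in the treated ones. They did not move together between syngraft and untreated allograft. Msr1 (145 and 838) and Fcgr1 (205 and 756) rose most, while Adgre1 (601 and 495), Lyz2 (4222 and 3687) and Mrc1 (522 and 226) were lower. The 7 neutrophil markers summed to 1512 in the syngraft and to between 545 (CsA) and 1245 (ABH4) in the allografts. Among those above the floor, Csf3r alone was higher in the untreated allograft (329) than in the syngraft (172). The part of these cells in the members' values was not tested.

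Like Gpx3, the summed markers of fibroblasts, fat, erythroid cells, endothelium, neutrophils and cardiomyocytes were lower in the untreated allograft than in the syngraft. Besides Csf3r, some single markers were not lower. They were Myh6 (3340.5 in the syngraft and 3578 in the untreated allograft), Actc1 (7266 and 7276), Tie1 (55.0 and 57.7) and Slc4a1 (39.9 and 40.6). The 9 fibroblast markers summed to 29085 in the syngraft, 5120 in the untreated allograft, 10216 with ABH4, 19146 with BH4, 4654 with NIL and 25589 with CsA. Among the allografts CsA had the highest sum and BH4 the next, and Gpx3 had signals of 840.5 and 669 on those arrays against 5527 in the syngraft. The 8 endothelial markers summed to 2668 in the syngraft and to between 1707 (untreated) and 2214 (CsA) in the allografts. The 4 fat markers measured summed to 2477 in the syngraft and to between 961 (NIL) and 1976 (CsA) in the allografts, with Adipoq and Lep at the floor on all arrays. The 10 cardiomyocyte markers summed to 57974 in the syngraft, to 52900 in the untreated allograft and to between 44441 (ABH4) and 55614 (CsA) in the treated ones. The 5 erythroid markers measured summed to 746 in the syngraft and to between 340 and 624 in the allografts, and the 6 B and plasma cell markers to 645 and to between 754 and 2100. Jchain alone carried the higher B and plasma cell sums, with 225 in the syngraft, 534 in the untreated allograft and 1840.2 with ABH4, and the other 5 were each lower in the untreated allograft than in the syngraft. The part of any of these cells in the Gpx3 values was not tested.

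**Figure D4:**
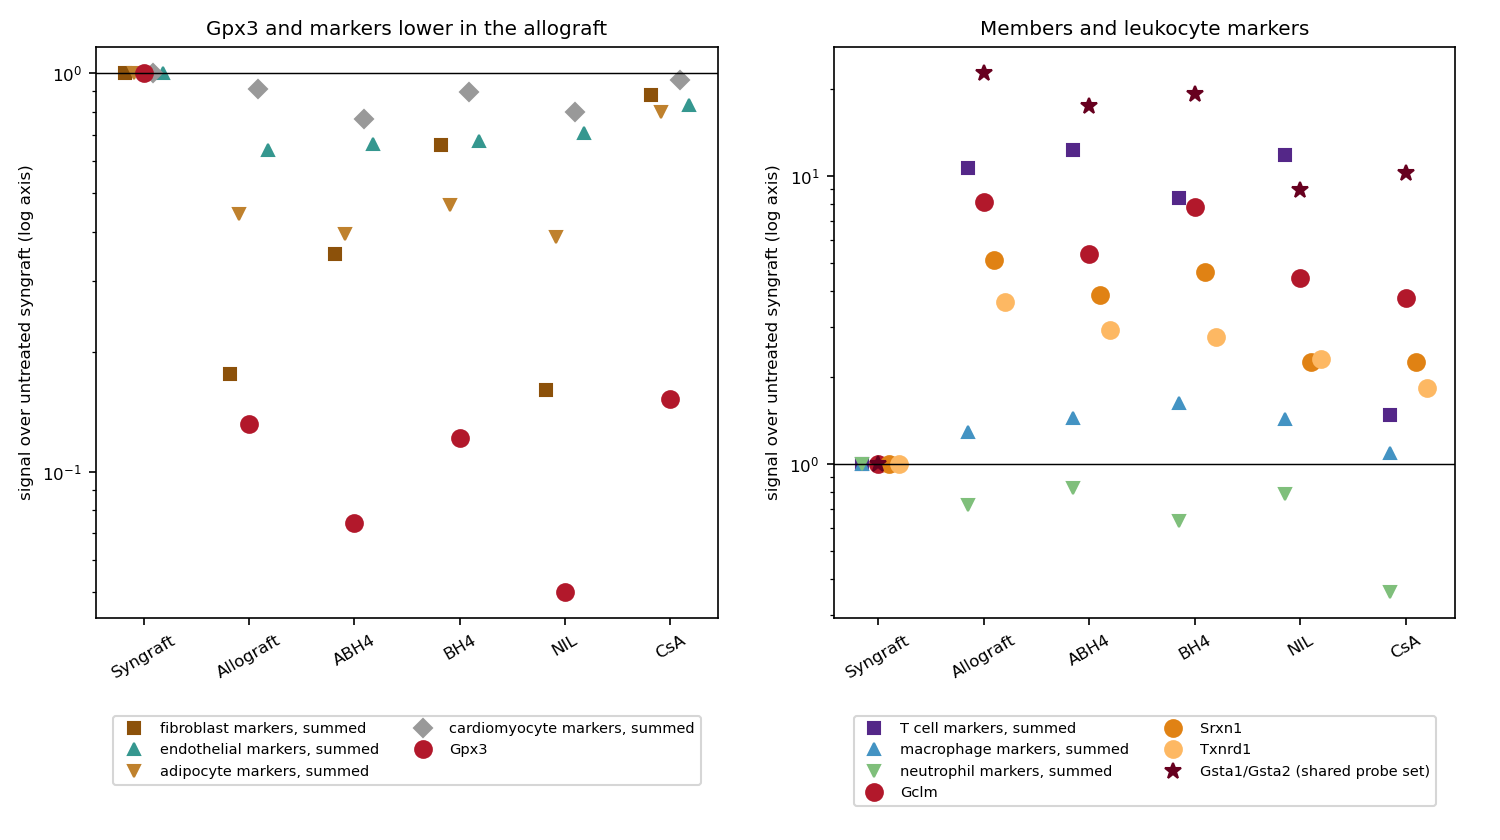
Signal over the untreated syngraft (log axis) on the 6 arrays, for Gpx3 with the summed fibroblast, endothelial, adipocyte and cardiomyocyte markers (left) and for Gclm, Srxn1, Txnrd1 and the shared Gsta probe set with the summed T cell, macrophage and neutrophil markers (right); points of 1 array are shifted sideways. Gpx3 stays low with CsA where the fibroblast sum is 25589 against 29085 in the syngraft, and Gclm is at 649 with NIL and 554 with CsA where the T cell sums are 2116 and 266; Srxn1 is drawn from its brightest probe set, and its other 3 are lower with CsA than with NIL.

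The genes whose pattern over the 6 arrays was most like that of Gclm were sought among 8086 genes above the floor on every array, by the root mean square difference of log2 profiles centred on their means. They were Ifit3 (0.13), Rnf19b (0.15), Gdap10 (0.17), Ifit1 (0.17) and Mgst1 (0.18), where the median gene had 0.999. Ifit3, an interferon-induced gene, had signals of 261 in the syngraft, 2471 in the untreated allograft, 1293 with NIL and 1195 with CsA. Among the members Srxn1 was nearest to Gclm (0.30), followed by Txnrd1 (0.46) and the shared Gsta probe set (0.56). For Gpx3 the nearest were Baiap2l1 (0.60), Synpo2 (0.66), Acta1 (0.67), Ndrg4 (0.70) and Igfbp5 (0.70), where the median gene had 1.39, so its likenesses were looser. Acta1, skeletal muscle actin, had signals of 5742 in the syngraft and between 1298 and 1986 in the allografts. All profiles share the same 6 arrays, and the likeness is a description with no test.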

How the data were processed

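RNA of 6 mouse heart grafts, 1 array per group, was analysed from the deposited table of signal intensity values for 22690 probe sets. The deposited intensity values are linear, and their mean after trimming 2% from each end was the same on every array to 3 digits, so a scaling step is read from the values and is not recorded elsewhere. The scanner software, summarisation and background correction are not given in the sources used here. Each array was rescaled to the mean of the 6 medians over 22626 probe sets other than controls, which moved arrays by -0.09 to 0.10 (log2). Signals under the 30th percentile of all rescaled values were set to that floor (34.8), then log2 was taken. Fold differences with 1 value at the floor are "at least". The platform annotation gave 20380 probe sets with 1 gene, 691 with several and 1555 with none. Symbols were updated through 20351 matched gene identifiers (RefSeq). The 12393 genes took their brightest probe set, and ranks cover genes above the floor on both arrays. The named pathway genes were the furthest from 0 in each list and comparison, with Nfe2l2, Keap1, Bach1 and Slc7a11 throughout. Slc3a2, Gsta4 and Txn1 were named after their values were seen. The members and lists were chosen with earlier results of these data known. Alternatives were no rescaling, quantile normalization, floors at the 10th and 50th percentile, the mean of all probe sets, genes above the floor only, and 2-fold in place of 1.5-fold. Python 3.11.15, pandas 2.3.3, numpy 2.4.6 and matplotlib 3.10.9 were used, and the calculation was tested on simulated data.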

Additional observations from a re-analysis of the deposited data

How the results depend on the processing

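No member difference past 1.5-fold changed sign under any of the 5 alternative scalings, floors or probe set rules. Over 300 recomputed values, 292 moved by less than the robust spread across genes or not at all, and 8 by more. Of the calls, 95 were kept, 10 lost and 1 gained. Many of these values could not move, so 292 and 95 do not measure robustness. The lower alternative floor changed no member difference. The higher alternative floor changed only that of the shared Gsta probe set between untreated allograft and syngraft. The mean of probe sets could not change members with 1 probe set: Gclm, Gpx3, the shared Gsta probe set, Hmox1 and Nqo1. At 2-fold, 3 members were lower with CsA, where 4.06% of all genes were, and 3 with NIL, where 0.791% were. With ABH4 0 were lower (0.282% of all genes), and 0 for ABH4 against BH4 (0.96%). Above the syngraft on all 5 allografts were 3 members and 1.32% of all genes. Members lower with ABH4 numbered 1 without rescaling (1.78% of all genes) and 1 after quantile normalization (2.14%). Members higher with NIL numbered 1 after quantile normalization, where 6.12% of all genes were higher. Leaving out the BH4 array, an alternative chosen after seeing the data, gave 5 members above and 1 below the syngraft on the remaining allografts. Of all genes 3.75% were above and 2.43% below there. The other counts stayed within 1.5 times.

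The deposited medians differed by -0.19 for allograft against syngraft, 0.19 for CsA, 0.15 for NIL and 0.05 for ABH4 against the untreated allograft. Without rescaling 1355 genes were higher and 2130 lower in the allograft (1911 and 1472 with it), 1716 and 917 with CsA (1154 and 1516), 1183 and 349 with NIL (790 and 661), and 470 and 220 with ABH4 (401 and 309). Quantile normalization gave 1276 and 1084 with CsA. With the 50th percentile floor 721 genes were lower in the allograft, 478 and 1192 were higher and lower with CsA, 174 and 433 with NIL, 272 and 201 with BH4, 147 and 119 with ABH4, and 176 and 230 for ABH4 against BH4. With the 10th percentile floor these numbered 2494, 2133 and 2054, 1778 and 1225, 1401 and 1114, 1113 and 957, and 1091 and 1251. Above and below the syngraft on all 5 allografts were 279 and 143 genes with the higher floor and 670 and 486 with the lower (450 and 269 in the report). No paired analysis was possible because each group has 1 array. A lone array per group limits every value, and signals near the floor, such as Slc7a11 and the syngraft value of the shared Gsta probe set, are the least certain.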
